A study of Mus musculus with 2 samples.

Results

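The Id, Hes and Hey genes make transcriptional repressors that hold back the differentiation of oligodendrocytes, the cells that make myelin. The 10 genes followed here are Id1, Id2, Id3 and Id4, Hes1, Hes5 and Hes6, and Hey1, Hey2 and Heyl. They were taken as every non-control probe whose gene name in the array files is one of these symbols, which gave 15 of 41174 gene probes and 10 of 27670 named genes. All 15 probes and all 10 genes passed the filter on dim signals, as did 32565 probes and 21896 genes in all.

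Messenger RNA of untreated primary oligodendrocytes was compared with that of untreated primary astrocytes from mice of strain C57BL/6J, to ask which transcripts are enriched in oligodendrocytes. Per the labels' protocols, oligodendrocytes were shaken from mixed glial cultures after 10 to 14 days. What stayed on the dish was kept in medium with 10% fetal calf serum, microglia were shaken off 7 to 10 days later, and the astrocytes then left were harvested with trypsin. The cell types thus differ in culture time, medium history and harvest as well as in identity, and the age of the animals is not given in the sources used here. Each of 2 arrays held RNA of both cell types in 2 colours, and the dyes were swapped: replicate 1 had oligodendrocyte RNA in Cy5, replicate 4 in Cy3. The design text speaks of 3 independent samples per cell type, and the arrays of replicates 1 and 4 were analysed here. Whether independent means separate cultures is not stated, so the spread of the 2 arrays could be technical. A p-value here rests in part on that spread and mostly on variance borrowed from other genes. The small number of arrays limits the precision.

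Id proteins have a helix-loop-helix domain but no basic region. They pair with E proteins and keep these partners from activating genes with factors such as Olig2, and their genes are classic targets of bone morphogenetic protein (BMP) signalling through Smad1 and Smad5. Hes and Hey proteins bind DNA through a basic helix-loop-helix (bHLH) domain and recruit Groucho/Tle corepressors. Most of their genes are switched on when the cleaved Notch receptor joins the DNA-binding protein Rbpj, while Hes6 is an unusual member that antagonises Hes1. BMP and Notch signals favour astrocyte formation and delay that of mature oligodendrocytes.

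The promoters of these genes are shown first because Hes5 and Hey2, both Notch targets, carry the letters to which Rbpj binds and had ratios of opposite sign. RefSeq windows of the GRCm38.p6 build, from 250 bases before to 50 after a transcription start, were at hand for 6 of the 10 genes in 7 windows (Id2, Id3, Id4, Hes5, Hey2 and a pair for Hes6). They were searched on both strands for GTGGGAA, for the shorter TGGGAA that it contains, and for GGCGCC, a letter string bound by BMP Smads. Hes5 and Hey2 each held 2 matches to GTGGGAA, and the windows of Hes6, Id2, Id3 and Id4 held none. Of 32851 promoter windows of the same length, 6.38% held at least 1 such match and 0.256% held 2 or more. Id4 held the shorter TGGGAA once, as did 25.6% of all windows with at least 1. Stretches of 30 bases around the matches, on the gene's strand with the match in capitals, read as follows.
Hes5 distal, chr4:154960686-154960715, plus strand: gggcgagcgcgTTCCCACagcccggacatt
Hes5 proximal, chr4:154960829-154960858, plus strand: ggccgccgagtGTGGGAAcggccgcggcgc
Hey2 distal, chr10:30842972-30843001, minus strand: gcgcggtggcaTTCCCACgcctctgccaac
Hey2 at the start site, chr10:30842769-30842798, minus strand: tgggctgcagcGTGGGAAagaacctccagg
Id4 distal, chr13:48260866-48260895, plus strand: tgcccTTCCCAttggcccgagcgtcattcc
Counted from the start site, the Hes5 matches began at -226 and -83, in opposite orientations. Those of Hey2 began at -207 and -4, also in opposite orientations, so that the second runs across the start. The RefSeq span of Hes5 begins further upstream, at 154960626, so its window lies inside the annotated gene. GGCGCC was found 4 times in the Hes5 window and once each in those of Id2, Id4 and Hey2, against 11.9% of all windows with at least 1 match. A match describes letters in a window and not a bound site.

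Known markers separated the cultures in the labelled direction. All 12 oligodendrocyte markers tested were higher in oligodendrocytes and all 10 astrocyte markers higher in astrocytes. Markers of other cells moved too. Of 12 microglia markers, 11 were higher on the oligodendrocyte side, with summed normalised signals of 266751 and 298867 against 67793 and 83367. All 9 ependymal cilia markers tested were higher on the astrocyte side, at 166145 and 144483 against 19120 and 12738. Of 9 neuron markers tested, 6 were higher on the oligodendrocyte side and 1 on the astrocyte side (20118 and 23848 against 5351 and 5481). Among 10 endothelial and fibroblast markers these counts were 5 and 1 (61273 and 64055 against 16704 and 14846). Of the markers tested in these lists, the neuronal transporter Slc17a7 alone was not well above background in every channel. The part of these cells in the values below was not tested. In RNA from whole cultures, fewer cells of a type and less RNA per cell cannot be told apart.

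The repressor genes lay on both sides, with more of them higher in astrocytes. Of the 10, limma called 7 higher in astrocytes, 2 higher in oligodendrocytes (Hes5 and Heyl) and left Hes6 uncalled, at an adjusted p under 0.05 over all 21896 genes. The same rule called 22.6% of all genes higher in astrocytes and 18.5% higher in oligodendrocytes. The median log2 ratio of oligodendrocyte over astrocyte was -0.63 over the 10 genes and -0.0040 over all genes tested. All 4 Id genes were on the astrocyte side, with a median of -1.78, whereas the 6 Hes and Hey genes spread from -2.39 to 1.43 around a median of -0.18. By size alone, 4 of the genes reached 2-fold toward astrocytes on each array (7.34% of all genes did) and 1 toward oligodendrocytes (5.10%). The counts depend on the setting. They were 4 toward astrocytes and 1 toward oligodendrocytes with median centring, and again 4 and 1 with limma's treat test against a log2 ratio of 0.5. With ratios set to the spike-in controls they were 8 and 1. Over all 21896 genes the same settings, in that order, called 1843 and 1085, 2208 and 1608, and 18245 and 1308.

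**Figure D1:**
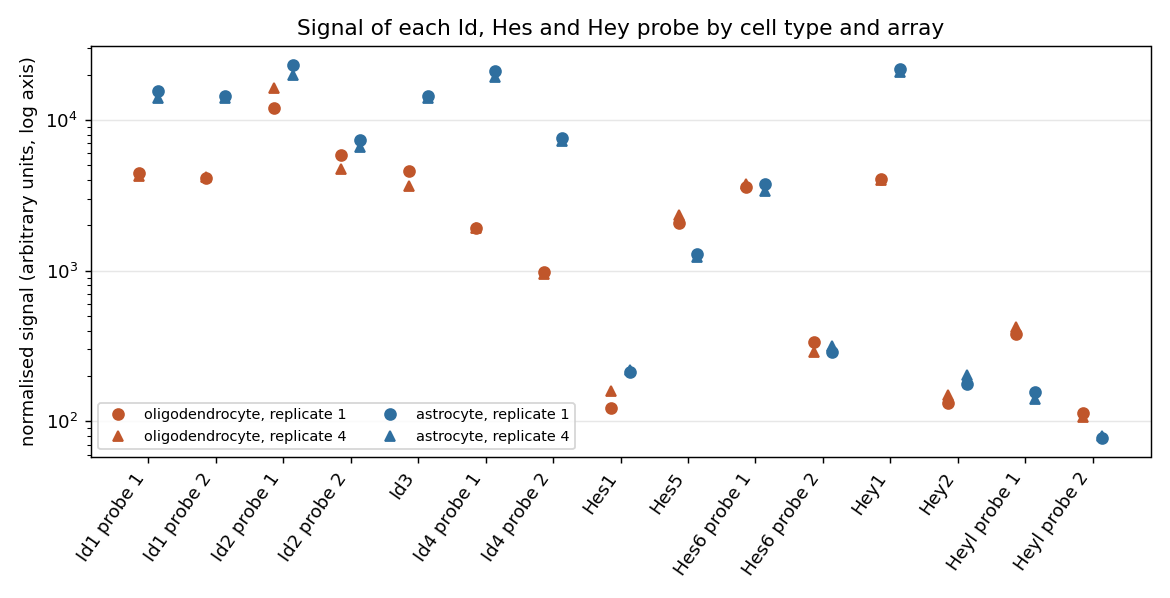
Normalised signal of each of the 15 probes on a log axis, in arbitrary units, for oligodendrocytes (orange) and astrocytes (blue) on the arrays of replicate 1 (circles) and replicate 4 (triangles); probe 1 of a gene is its brightest. Both astrocyte points lie above both oligodendrocyte points for every Id probe, Hes1, Hey1 and Hey2, and below them for Hes5 and Heyl. Such a lack of overlap is weak evidence, and its share over all probes was not counted. It sets signals against each other across arrays, whereas each ratio was taken within an array. Levels of different probes are not comparable.

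Id4 had the largest ratio of the set. Its brightest probe (mm7 chromosome 13, 47746118 to 47746177) gave normalised signals of 1929 and 1924 in oligodendrocytes and 21260 and 19322 in astrocytes, in arbitrary units that include the offset of 50 added to every spot. The astrocyte values lay far above the oligodendrocyte values, with no overlap. Here and below, a lack of overlap describes 2 values per cell type and is weak evidence. Its share over all genes was not counted. The log2 ratio was -3.40 ± 0.095 (SD, n = 2), or 10.5-fold higher in astrocytes (limma adjusted p = 7.66e-08), and it ranked 47th of 21896 genes toward astrocytes. The second probe, 453 bases further along the chromosome, read -2.94 ± 0.030. Both probes thus gave the same direction and differed by 0.51 and 0.41 on the arrays.

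Id1 and Id3, which are often induced together by BMPs, had nearly the same ratio. Id1 read 4448 and 4277 in oligodendrocytes and 15682 and 14068 in astrocytes, a log2 ratio of -1.77 ± 0.071 (SD, n = 2) or 3.41-fold higher in astrocytes (limma adjusted p = 1.78e-06). Its probes (chromosome 2, 152478157 to 152478216 and 152478167 to 152478226) share 50 of their 60 bases, so their equal ratios are not separate evidence. Id3 read 4620 and 3661 in oligodendrocytes and 14408 and 14045 in astrocytes, at -1.79 ± 0.21 and 3.46-fold (limma adjusted p = 2.59e-06). For both genes the cell types did not overlap. The Id3 probe is printed because its listed position spans 175 bases of chromosome 4 (135522597 to 135522771) for a probe of 60 bases, so its match to that build is split.
Id3 probe: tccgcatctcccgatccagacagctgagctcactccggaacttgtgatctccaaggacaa

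Id2, an inhibitor with a reported role in holding back oligodendrocyte precursors, had the smallest ratio of the Id genes and the widest spread. Its brightest probe (chromosome 12, 22930541 to 22930600) read 12071 and 16295 in oligodendrocytes and 23327 and 19913 in astrocytes. The cell types did not overlap, but replicate 1 gave a log2 ratio of -0.95 and replicate 4 gave -0.29. The mean was -0.62 ± 0.47 (SD, n = 2), 1.54-fold higher in astrocytes (limma adjusted p = 0.0112, with a 95% interval of -0.98 to -0.26). The second probe, which lists a span of 348 bases (22931820 to 22932167), read -0.32 and -0.48. Tested as probes of their own, both were called higher in astrocytes (limma adjusted p = 0.0101 and 0.0208). The second is printed with its last 3 bases in capitals, a stop codon of a reading frame that is open through the probe.
Id2 second probe: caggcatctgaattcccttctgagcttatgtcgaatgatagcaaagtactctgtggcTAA

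Among the Notch targets, Hey1 was the one far toward astrocytes. Hey1 (chromosome 3, 8669867 to 8669926) read 4082 and 4008 in oligodendrocytes and 21694 and 20726 in astrocytes, without overlap. Its log2 ratio was -2.39 ± 0.028 (SD, n = 2), 5.24-fold higher in astrocytes (limma adjusted p = 2.78e-07), and it ranked 305th of all genes toward astrocytes. Its relative Hey2 (chromosome 10, 30613567 to 30613626), whose promoter held a pair of GTGGGAA matches, was dim. Hey2 read 133 and 150 in oligodendrocytes and 175 and 202 in astrocytes, a log2 ratio of -0.42 ± 0.024 (limma adjusted p = 0.0183). The offset pulls such dim ratios toward 0, and Feature Extraction's own ratio for Hey2 was -0.60.

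Hes1, the widely used Notch target of neural progenitors, was also dim. It read 122 and 158 in oligodendrocytes and 213 and 218 in astrocytes, so that the cell types did not overlap. The log2 ratio was -0.63 ± 0.24 (SD, n = 2), 1.55-fold higher in astrocytes (limma adjusted p = 0.00321), and -1.03 in Feature Extraction's ratio. Its only probe lists 296 bases of chromosome 16 (29738743 to 29739038), again longer than the probe itself.
Hes1 probe: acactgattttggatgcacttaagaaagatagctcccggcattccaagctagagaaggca

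Hes5 and Heyl went the other way. Hes5, the main Notch effector of neural stem cells and a repressor of myelin genes, read 2079 and 2329 in oligodendrocytes and 1294 and 1233 in astrocytes (chromosome 4, 153951780 to 153951839). Every oligodendrocyte value was above every astrocyte value. Its log2 ratio was 0.80 ± 0.17 (SD, n = 2), 1.74-fold higher in oligodendrocytes (limma adjusted p = 0.000546). The call was lost with ratios set to the spike-in controls, where the value was 0.096 (limma adjusted p = 0.479). Hes5 and Hey2, which share the doubled GTGGGAA letters, had called ratios of opposite sign in the fit reported. Both calls were lost with median centring and with limma's treat test against a log2 ratio of 0.5. The part of these letters in the ratios was not tested.

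Heyl, a Notch target best known from the smooth muscle and pericytes of vessels, had the largest ratio toward oligodendrocytes. On its brightest probe (chromosome 4, 122694378 to 122694437) it read 377 and 420 in oligodendrocytes and 157 and 140 in astrocytes, again without overlap. The log2 ratio was 1.43 ± 0.23 (SD, n = 2), 2.69-fold higher in oligodendrocytes (limma adjusted p = 1.36e-05), and Heyl ranked 709th of all genes toward oligodendrocytes. The size differed with the probe and the processing. It was 1.75 with an offset of 10, 2.08 in Feature Extraction's ratio, which changes several steps together, and 1.39 without background subtraction. The mean over both probes was 0.95. The dimmer probe read 0.48 ± 0.093 and was not well above background in the astrocyte channel of replicate 1. The endothelial and fibroblast markers rose on this side in 5 of 10 cases, among them the collagen gene Col1a1 at 2.69. Of the endothelial ones, Cdh5 rose (0.74), Pecam1, Cldn5 and Flt1 were not called, and Kdr was higher in astrocytes (-0.75). The marker lists held none chosen for smooth muscle or pericytes. The part of such cells in the Heyl value was not tested.

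Hes6, the antagonist of Hes1, stood apart from the others in showing no call. Its brightest probe (chromosome 1, 91319132 to 91319191) read 3594 and 3774 in oligodendrocytes and 3745 and 3364 in astrocytes, and the cell types overlapped. The log2 ratio was 0.053 ± 0.16 (SD, n = 2), with a limma adjusted p = 0.803 and a 95% interval of -0.23 to 0.33. A dimmer probe 985 bases away gave 0.048 ± 0.25, with the sign turned on each array relative to the first. With ratios set to the spike-in controls Hes6 read -0.65, a call toward astrocytes (limma adjusted p = 0.000762). The dimmer probe is printed because it is a separate stretch of the transcript that was not called either.
Hes6 second probe: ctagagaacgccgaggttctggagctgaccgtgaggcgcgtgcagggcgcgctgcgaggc

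**Figure D2:**
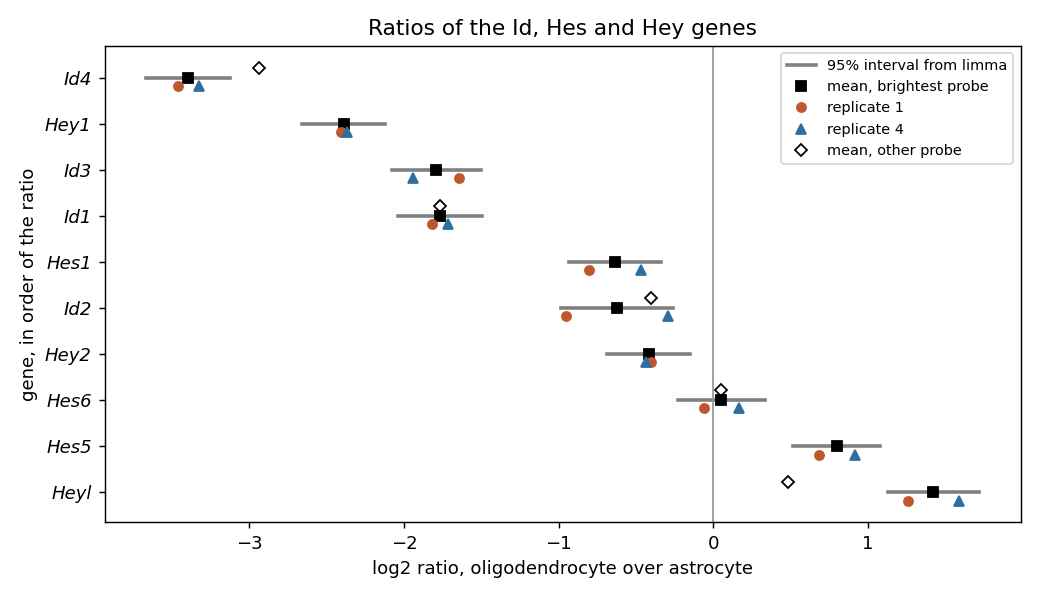
Log2 ratio of oligodendrocyte over astrocyte for the 10 genes in order; black squares are means of the brightest probe over 2 arrays, grey lines their 95% intervals from limma, circles and triangles replicates 1 and 4, and open diamonds the mean of a second probe. Id4 lies at -3.40 and Heyl at 1.43, and only the interval of Hes6 crosses 0.

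In order of their ratios the genes ran Id4, Hey1, Id3, Id1, Hes1, Id2, Hey2, Hes6, Hes5 and Heyl. The values of the arrays overlapped between Id3 and Id1, between Hes1 and Id2, and between Id2 and Hey2, so the order within these pairs is not resolved. All other neighbours were apart on both arrays. In 9 of the 10 genes both arrays gave the same sign, Hes6 being the exception. Probe by probe, limma called 10 of the 15 higher in astrocytes and 3 higher in oligodendrocytes, against 21.8% and 18.5% of all 32565 probes; the other 2 were those of Hes6.

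The calls fell into a firm and a less firm group. Id1, Id3, Id4, Hey1 and Heyl kept their direction and call under all 13 tested alternatives. These are not separate checks: Feature Extraction's ratio and the authors' table hold equal values. Several others leave the ratio unchanged and alter only the test or the genes that enter it. Id2, Hes1, Hey2 and Hes5 lost theirs when arrays were centred on their median and loess was left out (limma adjusted p = 0.381, 0.436, 0.805 and 0.363), at ratios of -0.67, -0.64, -0.41 and 0.69. None of these 4 passed limma's treat test against a log2 ratio of 0.5, with an adjusted p from 0.101 for Hes5 to 1 for Hey2. Over the alternatives, the limma adjusted p reached from 5.17e-05 to 0.89 for Id2, from 4.01e-06 to 0.661 for Hes1, from 2.18e-05 to 1 for Hey2 and from 6.39e-06 to 0.479 for Hes5.

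**Figure D3:**
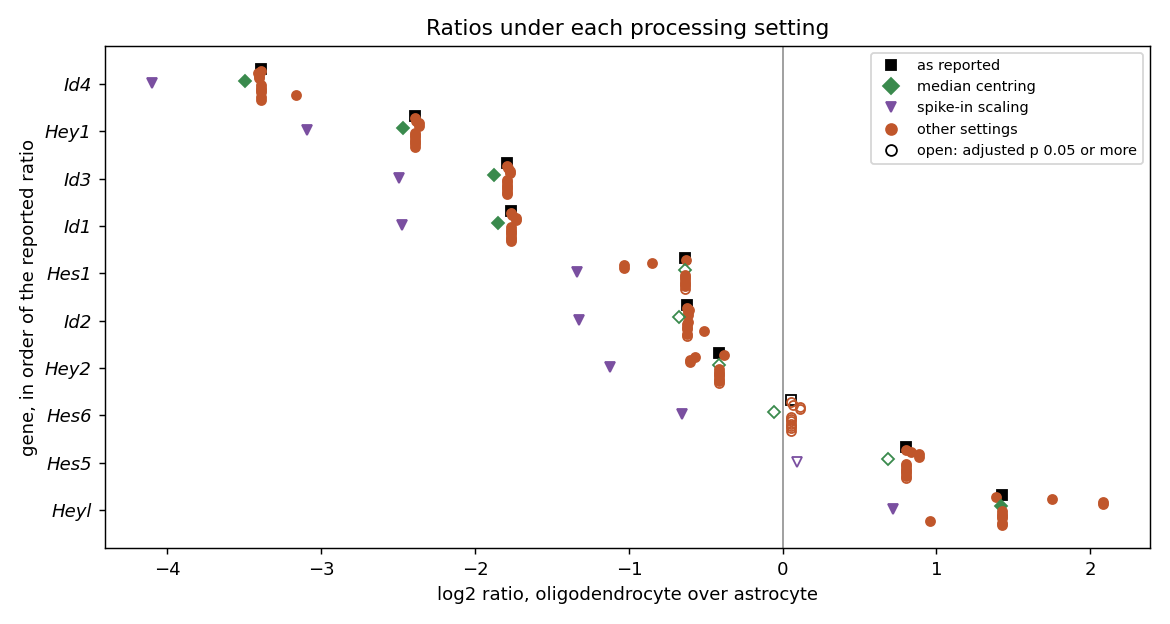
Log2 ratio of each gene as reported (black squares) and under 13 other settings, with median centring (green diamonds) and spike-in scaling (purple triangles) marked and uncalled values open. Feature Extraction's ratio and the authors' table, both among these settings, hold equal values. Spike-in scaling moves every gene 0.71 toward astrocytes, which takes Hes6 to -0.65 and Hes5 to 0.096.

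Genes of BMP and Notch signalling, partners and corepressors of these repressors and their other relatives were taken from 6 lists. Of 96 genes tested, 41 were higher in astrocytes, 22 higher in oligodendrocytes and 33 uncalled, and the median was -0.19. The all-gene shares given above, 22.6% and 18.5%, are the background for these counts and for those of each list in the fit reported. The count toward oligodendrocytes is near its share. The split depends on scaling: it was 19 to 5 with median centring and 75 to 8 with ratios set to the spike-in controls. The all-gene counts moved too, to 1843 and 1085 of 21896 with median centring and 18245 and 1308 with the spike-in controls. These are the background for list counts under those settings, including those given per list below. As the marker lists show, ependymal cilia genes lay on the astrocyte side of the comparison and microglia genes on the other, and their part in these counts was not tested.

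The list of BMP ligands and antagonists also holds Bmp1, a protease and not a ligand, and Bambi, which is not secreted. Tested as probes of their own, those of Bmp1 were called in opposite directions (-0.82 and 0.39, limma adjusted p = 0.000674 and 0.0234). Of the 21 genes of this list tested, limma called 12 toward astrocytes, 2 toward oligodendrocytes and 7 in neither direction, at a median of -0.39. With median centring these counts were 6 and 0. Nbl1, a secreted BMP antagonist, stood at -2.59 ± 0.12 (limma adjusted p = 1.99e-07) and Sostdc1, another, at -2.38 ± 0.031. Bmp4, the ligand most used to block oligodendrocyte differentiation in culture, was higher in oligodendrocytes at 0.88 ± 0.065 (limma adjusted p = 0.000227), with signals of 315 and 288 against 166 and 162. Grem1, an antagonist of that ligand, stood at 0.72 on the same side. The antagonist Nog was at -0.42 ± 0.11 on the astrocyte side. Ligands were called toward astrocytes too. Bmp6 stood at -2.37 ± 0.50 (limma adjusted p = 2.23e-06), with signals of 790 and 603 in oligodendrocytes and 3178 and 3976 in astrocytes. Its other probe read -1.23. Gdf11 stood at -0.42 and Gdf10 at -0.39.

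Receptors and transducers of BMP signals were called in both directions. Of 16 tested, 8 were called toward astrocytes, 4 toward oligodendrocytes and 4 in neither direction, and their median was -0.37. The count toward oligodendrocytes was 1 with median centring. The type I receptor Bmpr1a stood at -1.51 ± 0.019 (limma adjusted p = 5.04e-06), and its relative Bmpr1b at -1.68 ± 0.18. The other probe of Bmpr1a read -0.95. The coreceptor Rgma stood at -1.69 ± 0.38. Smad1, which carries the signal to the Id genes, read 4796 and 5338 in oligodendrocytes and 13793 and 10760 in astrocytes, at -1.27 ± 0.36, and Smad5, which acts beside it, stood at -1.25 ± 0.23. Dimmer probes of Smad5 read -0.72 and -0.58. The inhibitory Smads moved apart, Smad6 at -1.49 ± 0.45 and Smad7 at 1.87 ± 0.032 (limma adjusted p = 3.81e-05 and 1.20e-06). The ubiquitin ligase Smurf1, which removes Smads, stood with Smad7 at 1.14 ± 0.056, where its other probe read 0.47. The receptors Acvrl1 (1.01 ± 0.038) and Acvr2b (0.77 ± 0.14) were also higher in oligodendrocytes.

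Notch genes went both ways. Of 29 tested, 11 were called toward astrocytes, 8 toward oligodendrocytes and 10 in neither direction, and their median was -0.11. These counts were 6 and 2 with median centring. The receptors Notch1 (-0.95 ± 0.40) and Notch2 (-1.47 ± 0.35) were higher in astrocytes, although the dimmest probe of Notch2 read -0.0081. Notch3 and Notch4, at -1.81 and -1.13, were on the same side, so all 4 receptors were. The ligands Dll1 (0.74 ± 0.096), Jag1 (0.80 ± 0.086) and the unusual Dll3 (1.59 ± 0.29) were higher in oligodendrocytes; the dimmer probe of Jag1 read 0.080. Contactin Cntn1, an adhesion molecule reported as a Notch ligand of the oligodendrocyte lineage, had the largest ratio at 2.41 ± 0.29, and Dlk1, a noncanonical ligand, the most negative at -2.17 ± 0.041. The other probe of Dlk1 read -1.45. Rbpj, through which all receptors act, was not called at 0.22 ± 0.29 (limma adjusted p = 0.245).

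The list that joins E proteins, the partners of the Id proteins, with bHLH activators showed few calls in either direction, near the all-gene shares. Of 11 genes tested, 2 were higher in oligodendrocytes, 2 higher in astrocytes and 7 not called, with a median of -0.074. No gene of this list was called with median centring, against 4 in the fit reported. The E proteins Tcf3 (-0.34, limma adjusted p = 0.0451) and Tcf4 (-0.46) were the pair on the astrocyte side. Tested as probes of their own, dimmer probes of Tcf3 (-0.27) and Tcf4 (-0.15) were not called, while another of Tcf4 (-0.48) was. The brightest probe of Tcf12 stood at 0.15 and was not called. Its other probes ran from -0.024 to 0.47, and the highest was called toward oligodendrocytes (limma adjusted p = 0.0136). Olig2, which sets oligodendrocyte fate, stood at 1.02 ± 0.051 and Olig1, its neighbour in function, at 0.50 ± 0.18, both higher in oligodendrocytes; the second probe of Olig2 read 0.30.

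Corepressors and relatives of Hes and Hey had calls in both directions, and their counts depended on the setting. Of 13 genes tested in the corepressor list, which includes the DNA-binding factor Runx1, 6 were higher in astrocytes, 5 in oligodendrocytes, with 2 uncalled. Tested as probes of their own, those of Runx1 were called in opposite directions (-0.66 and 0.70, limma adjusted p = 0.00114 and 0.00115). The counts were 0 and 2 with median centring; Feature Extraction's ratio gave 3 toward astrocytes and the trended prior 3 toward oligodendrocytes. Within the Tle family, Tle2 (1.70 ± 0.21) and Tle6 (1.60 ± 0.18) were higher in oligodendrocytes and Tle3 (-0.85 ± 0.092) and Tle1 (-0.37 ± 0.0016) in astrocytes, where another probe of Tle1 read 0.14. The other probe of Tle3 read -0.34. The histone deacetylase Hdac1, at -0.83 ± 0.82, was also called higher in astrocytes (limma adjusted p = 0.0134), although its arrays read -1.42 and -0.25. Of 6 other genes of the Hes and Hey type, Bhlhe40 stood at -1.23 ± 0.23 and Helt at -0.47, both higher in astrocytes, and Bhlhe41 at 0.51 was higher in oligodendrocytes. The other probe of Bhlhe41 read 0.19 and was not called when tested on its own (limma adjusted p = 0.245). Hes2, Hes3 and Hes7 were not called, with ratios from -0.086 to 0.19.

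**Figure D4:**
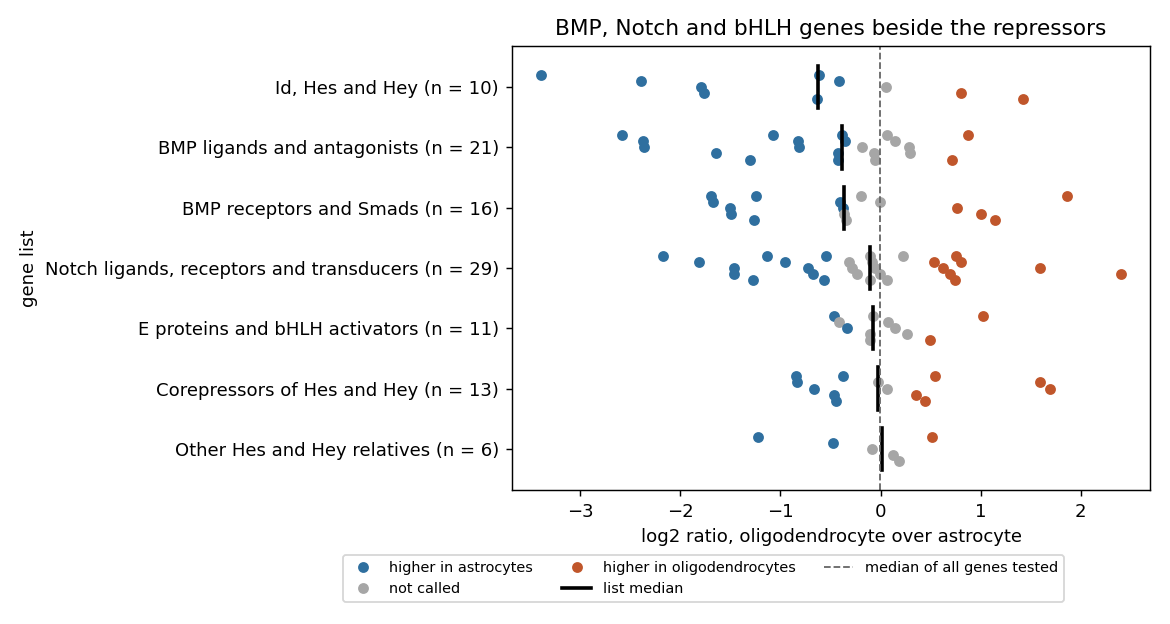
Log2 ratio of oligodendrocyte over astrocyte for the 10 repressors and the genes of 6 pathway lists, 1 point per gene, blue where called higher in astrocytes, orange where called higher in oligodendrocytes and grey where not called. Black bars are list medians, which run from -0.63 for the repressors to 0.017 for their other relatives, and the dashed line is the median of all genes tested at -0.0040.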

How the data were processed

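Spot intensities (mean signal and local background per channel) came from the deposited scanner files, read by Agilent Feature Extraction 9.5.3.1, per the file headers, with no normalisation. That program also wrote a log10 ratio (red over green) after its own background and dye steps, per the file headers; the values the authors deposited in their table equal it, also as log10. Flags on spots (well above background, saturated, outlier) were used as deposited. Slide and scan are the same for both arrays and gave no batch to test.

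In limma 3.58.1 under R 4.3.3, normexp (offset 50) removed background and loess normalised each array, controls having weight 0. All ratios were then expressed as oligodendrocyte over astrocyte, and replicate spots were averaged. A probe needed both arrays well above background for at least 1 cell type and no outlier marks (152 of 41174 were marked). The brightest entering probe stood for a gene. Genes were named through RefSeq tables. limma's lmFit and eBayes tested each log2 ratio against 0 with Benjamini-Hochberg adjustment. With 1 residual degree of freedom per gene, eBayes borrows most of the variance estimate from other genes. Channel signals were further normalised by Aquantile. Values are means over 2 arrays with their SD.

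The members and the lists were chosen with earlier results of these data known. Named genes are the 10 members, the 2 largest called ratios per direction of each pathway list (dim genes left out), and a fixed set; others were named after their values were seen. The values of 1 gene of that set are not reported here. The mm7 positions are those of the files; exon and UTR annotation of that build was not used here.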

Additional observations from a re-analysis of the deposited data

How the results depend on the processing

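As reported, 7 of the 10 genes were called higher in astrocytes and 2 higher in oligodendrocytes. These counts became 4 and 1 with median centring and again 4 and 1 with limma's treat against 0.5; with spike-in scaling 1 gene was higher in oligodendrocytes. Over all genes, 4953 and 4061 became 1843 and 1085 with median centring, 18245 and 1308 with spike-in scaling and 2208 and 1608 with treat. The pathway lists, at 41 and 22, gave 19 and 5, 75 and 8, and 21 and 9 under the same settings. Hes6 read -0.060 with median centring (limma adjusted p = 1) and -0.65 with spike-in scaling. Spike-in scaling lowers every ratio by 0.71, which is its construction; treat asks for a larger change; for median centring the cause was not tested. The background, offset, ratio source, between-array scaling, dim-probe filters, outlier marks, mean of probes and prior moved none of the counts named here by over 1.5 times. Leaving out an array leaves no residual degree of freedom, so it gives values with no test: the smallest and largest ratios of Id2 were -0.95 and -0.29, and no called gene changed sign. The test of ratios against 0 is itself paired by array, because each ratio sets both cell types of a replicate number against each other on 1 array.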

Other observations

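The array also holds a probe under the name A330033J07Rik whose description in the files is a brain clone with an Id4 product. It lies outside the rule for the 10 genes and was singled out after its value was seen. It read -0.37 and 0.022 on the arrays of replicates 1 and 4, a mean log2 ratio of -0.17 ± 0.28 (SD, n = 2), and was not called when every probe was tested (limma adjusted p = 0.351), beside -3.40 and -2.94 for the probes named Id4.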
